A study of Drosophila melanogaster with 4 samples.

Results

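The regions described here are the H3K4me3-enriched regions of fly heads that lie on chromosome 4, on the heterochromatic and unplaced sequences of the genome assembly, and at the centromere-proximal ends of arms 2L, 3L and X. They were chosen by position among the enriched regions of the authors' combined list of both ChIP replicates, in FlyBase release 5 coordinates. Earlier results of these data were known when the rule was set. A region was a member if its score was above 0 and it lay on 4, XHet, YHet, 2LHet, 3LHet, 3RHet or U, or if it started at or beyond 21000000 on 2L, 22500000 on 3L or 20400000 on X. This gave 259 of the 4979 enriched regions, of which 74 lay on chromosome 4, 71 on the Het sequences and U, and 114 at the proximal ends. The lists of the replicates held 238 of 4705 regions in replicate 1 and 236 of 4713 in replicate 2 under the same rule. The remaining 4700 regions of 2L, 2R, 3L, 3R and X served for comparison and are called the rest of the major arms, and the 20 regions of 2RHet belonged to neither set. The rule sets no limit on 2R and 3R, so the rest of the major arms includes their centromere-proximal ends.

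All samples came from wild-type flies of the Oregon-R strain, at a stage labelled mixed adult, with no sex or exact age in the labels. Heads were sieved from flies raised in population cages, and chromatin was precipitated with an antibody against H3K4me3 (ab8580, lot 2) and sequenced. There were 2 ChIP replicates, and an input of the same genotype was the control of each. A head holds neurons, glia, photoreceptors, muscle and fat body, so a weaker region can mean fewer cells with the mark or less of it per cell, and these cannot be told apart. Each region carries the authors' own score, whose scale is not given in the sources used here, so it was used only to describe and order regions within its own list.

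H3K4me3 is the trimethylated form of lysine 4 of histone H3, which Set1-type enzymes place around the starts of transcribed genes. Heterochromatin, packed by HP1a on histone H3 methylated at lysine 9, is rich in repeats and poor in genes, and it surrounds the centromeres, makes up nearly all of the Y and is interspersed along chromosome 4. Chromosome 4, the dot chromosome, still carries many active genes, among them eyeless (ey), a master regulator of eye development, cubitus interruptus (ci), the transcription factor of Hedgehog signalling, and zfh2, a zinc finger homeodomain factor. Genes such as light (lt), which acts in pigment granule formation, and concertina (cta), a G protein subunit used in gastrulation, work within the heterochromatin near the centromere of chromosome 2. The Y carries mainly genes for male fertility that are transcribed in the testis. Het sequences are assembled heterochromatic scaffolds, and U joins scaffolds that could not be placed, so distances on U are not distances on a chromosome.

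The groups differed widely in how much of their sequence lay in enriched regions. Enriched regions of the combined list covered 24.9% of chromosome 4, 1.25% of the Het sequences and U and 7.42% of the proximal ends, against 16.0% of the rest of the major arms. In the replicates the covered share of chromosome 4 was 22.1% in replicate 1 and 21.6% in replicate 2. For the Het sequences and U it was 1.12% and 1.04%, and for the proximal ends 6.76% and 6.97%. The Het sequences were not alike. In the combined list 8.49% of XHet was covered, 3.83% of 2LHet, 2.97% of YHet, 2.10% of 3LHet, 1.21% of 3RHet and 0.743% of U. XHet, with 5 regions on 0.204 Mb, was thus covered more than the proximal ends as a whole, also in the replicates (7.13% and 7.36%). Relative to the rest of the major arms, the covered share was 1.47 ± 0.0278 (SD, n = 2) times as high on chromosome 4, 0.0726 ± 0.00396 times on the Het sequences and U, and 0.462 ± 0.00879 times at the proximal ends. All 3 ratios lay further from 1 than the spread between replicates, and no test over samples was made, since 2 replicates are too few for an exact test to pass a threshold. The SD is the spread of repeated lists and leaves out the counting error of few regions. The labels do not state whether separate fly cultures were used, so this spread may be technical. Read counts are not part of the lists, so the depth behind each region is unknown, and the share of each sequence on which reads can be placed was not tested.

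The median width of a combined region was 3536.5 bp on chromosome 4, 2406 bp on the Het sequences and U and 3531 bp at the proximal ends, against 3171 bp over the whole list. The median scores were 1.54, 1.77 and 1.89, against 1.78 over the whole list. In the combined list chromosome 4 and the proximal ends thus had nearly the same median width, above that of the whole list. In the replicates chromosome 4 had the larger one, 3890.5 against 3433.5 bp in replicate 1 and 3540 against 3427 bp in replicate 2. Chromosome 4 had the lower median score of these groups, and the Het sequences and U had the narrowest regions by median.

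**Figure D1:**
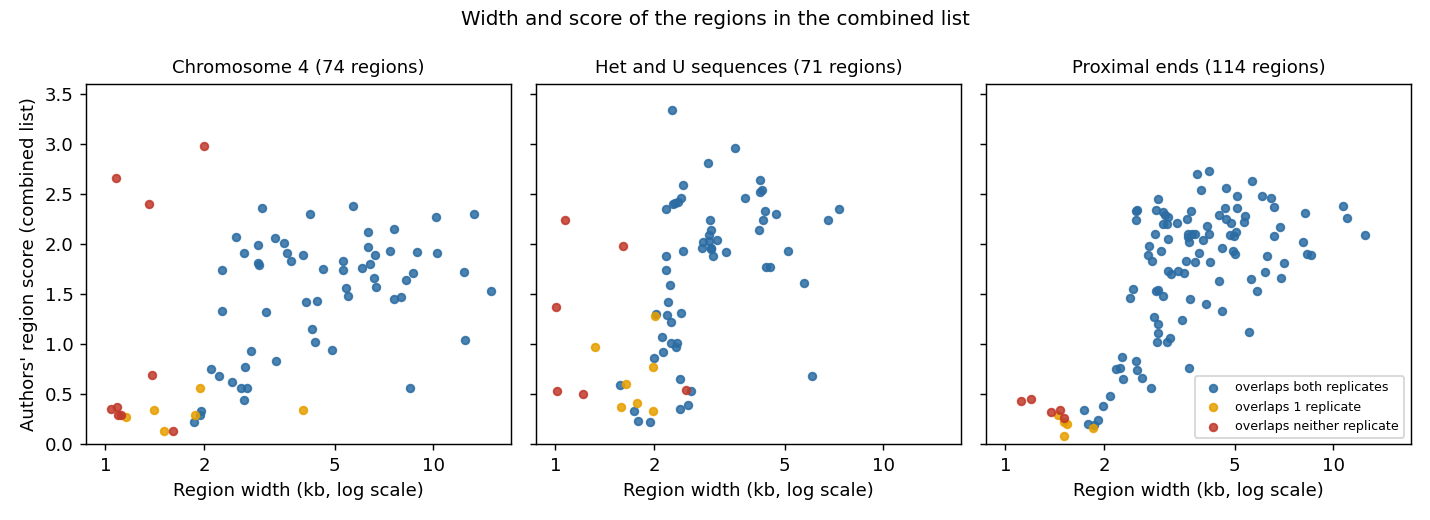
Width in kb (log scale) against the authors' score for the combined regions of each group, coloured by whether the region overlapped regions of both replicates, 1 replicate or neither. On chromosome 4 no region over 5 kb scores above 2.38, and 3 narrow regions with no replicate counterpart stand higher. On the Het sequences and U many regions of 2 to 2.5 kb spread over the whole range of scores.

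Chromosome 4 was marked along nearly its whole assembled length of 1.352 Mb. The first of its 74 combined regions started at 58959, and the last ended 1760 bp before the end of the sequence. This last region had no counterpart in the replicates, whose own last regions ended 32185 bp (replicate 1) and 32243 bp (replicate 2) before that end. In windows of 150 kb the combined covered share was lowest from 750001 to 900000, at 11.9% (8.78% in replicate 1 and 9.76% in replicate 2). It was highest from 150001 to 300000, at 33.9% (29.2% and 29.0%). The other full windows lay between 18.7% and 29.7%, so even the sparsest window of chromosome 4 was covered more than the proximal ends as a whole. The median gap between neighbouring regions was 7735 bp, against 7765 bp on the rest of the major arms. In the replicates it was 10442 bp against 8362 bp and 10402 bp against 8160 bp, so the gaps were wider on chromosome 4 there. No gap on chromosome 4 exceeded 100 kb. The widest ran from 726892 to 805002 (78.1 kb) and held no base of a region in either replicate, and the next from 390944 to 447933 (57.0 kb). The Release 6 gene table lists 80 protein-coding genes on chromosome 4, among 114 genes of all kinds. Positions were not carried between releases and no region was assigned to a gene, so the number of regions per gene is not known.

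Broad regions made up a larger share on chromosome 4 than in the whole list, though most of its regions were 5 kb wide or less. Of its 74 combined regions 26 (35.1%) were wider than 5 kb, against 20.4% of all combined regions, and 6 (8.11%) were wider than 10 kb, against 2.55% of all. In each replicate 23 of 66 regions (34.8%) were wider than 5 kb, against 18.5% of the full list in each case. Above 10 kb there were 4 in replicate 1 (6.06% against 1.98% of all) and 2 in replicate 2 (3.03% against 1.99%). The excess above 5 kb was thus seen in both replicates to a like extent, whereas that above 10 kb rested on few regions. X outside its proximal end also exceeded the whole list, with 27.4% over 5 kb (23.3% in replicate 1 and 25.1% in replicate 2). Above 10 kb it had 4.25%, with 3.21% in replicate 1 and 3.41% in replicate 2, the last being more than on chromosome 4.

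The widest region of chromosome 4 spanned 15019 bp, at 143774 to 158792, with a score of 1.53. Each replicate showed 2 regions there, of 11960 and 1726 bp in replicate 1 and of 12702 and 1886 bp in replicate 2. The next, at 1042694 to 1055978, was a single domain of 13285 bp that measured 12985 bp in replicate 1 and 13209 bp in the other. Its score of 2.30 was the highest among the 5 widest. The region at 903024 to 915537 (12514 bp) had the lowest score of the 5, 1.04, and broke into 3 regions in each replicate. These were 1531, 4118 and 4701 bp wide in replicate 1 and 2012, 4712 and 4074 bp in replicate 2. The region at 1140810 to 1153188 (12379 bp, score 1.72) was a single region of 10648 bp in replicate 1 and 2 regions of 9522 and 1771 bp in replicate 2. At 462206 to 472443 (10238 bp, score 1.91) each replicate had a single region, of 8958 bp and 9949 bp. The widest regions were therefore a mixture of continuous domains and of neighbours that the combined list joined. Of the 59 combined regions of chromosome 4 found in both replicates, 4 (6.78%) were split in at least 1 replicate, against 3.66% of all.

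Regions of chromosome 4 of 2 kb or more had lower median scores than regions of the same width class elsewhere. In neither replicate did any of its 66 regions fall among the top 10% of the list by score (a class of 10.0% of the list in replicate 1 and 9.99% in replicate 2). Among combined regions wider than 5 kb the median score was 1.75 on chromosome 4 (26 regions) and 2.27 on the rest of the major arms (958 regions). In replicate 1 the medians of this width class were 1.96 and 2.36, and in replicate 2 they were 1.86 and 2.32. In the class of 2 to 5 kb, the combined medians were 1.42 and 1.76, those of replicate 1 were 1.48 and 1.90 and those of replicate 2 were 1.44 and 1.86. The median of chromosome 4 was lower in both of these width classes in all 3 lists. Under 2 kb the medians were 0.33 and 0.31 in the combined list (17 and 604 regions), 0.36 and 0.47 in replicate 1 and 0.43 and 0.44 in replicate 2. Across regions, the Spearman correlation of width with score was 0.46 for the 74 combined regions of chromosome 4 and 0.74 for the 4700 of the rest. It was 0.57 against 0.73 in replicate 1 and 0.59 against 0.72 in replicate 2. A lower correlation than on the rest was not particular to chromosome 4. On the Het sequences and U it was 0.545 in the combined list, 0.59 in replicate 1 and 0.56 in replicate 2. At the proximal ends it was 0.60, 0.60 and 0.62. These correlations describe regions of the same libraries, which are not independent replicates.

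Among the regions of chromosome 4 found in both replicates, the highest score belonged to a 5689 bp region at 332477 to 338165. It scored 2.38 in the combined list, 2.49 in replicate 1 (rank 697 of 4705) and 2.30 in replicate 2 (rank 1157 of 4713). A 2993 bp region at 85791 to 88783 followed with 2.36, and with 2.43 and 2.32 in the replicates. At the other extreme, the region at 194698 to 196202 scored 0.13 and was found in replicate 1 alone, with 0.29. The region at 80006 to 81610 also scored 0.13 and had no counterpart, and the region at 175306 to 177162 scored 0.23 in the combined list, 0.37 in replicate 1 and 0.27 in replicate 2. The 3 lowest were all under 2 kb wide.

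**Figure D2:**
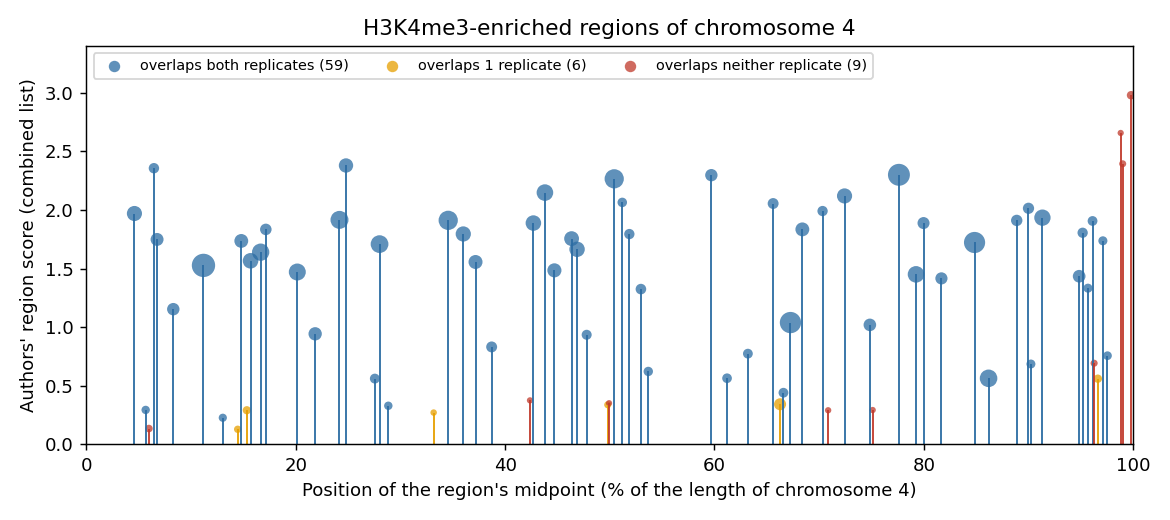
The 74 combined regions of chromosome 4, placed by their midpoint as a percentage of the chromosome's length, with the authors' score as height, the area of each dot proportional to width and the colour giving replicate support. Regions found in both replicates (59) lie along nearly the whole chromosome, and the highest of them scores 2.38. The 3 highest scores, 2.39 to 2.98, stand at the last positions and have no counterpart in either replicate.

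The highest scores of chromosome 4 in the combined list came from its last 3 regions, none of which appeared in a replicate list. They lay at 1335174 to 1336249 (1076 bp, score 2.66), 1337626 to 1338987 (1362 bp, score 2.39) and 1348102 to 1350097 (1996 bp, score 2.98). The last of them ranked 3 of 4979 in the combined list. Together they spanned 14924 bp within the final 16684 bp of the sequence. The nearest region of replicate 1 was 15501 bp from the first of them, and that of replicate 2 was 15559 bp away. Such regions were rare in the list as a whole. Among 263 combined regions found in neither replicate, 6 had a score above the list's median of 1.78, and 3 of the 6 were these. Of the others, 2 lay on U, at 6329380 to 6330448 (1069 bp, score 2.24) and 7585926 to 7587527 (1602 bp, score 1.98), and 1 lay outside the groups, on X at 4820203 to 4821210 (1008 bp, score 3.12). The replicate lists held nothing narrower than 1301 bp (replicate 1) or 1302 bp (replicate 2), and 3 of the 6 were narrower than this. Of the 3 on chromosome 4, 1 was narrower and the other two were wider. The part of this width in the result was not tested. Without these 3, no combined region of chromosome 4 was among the top 10% by score, and with them 2 of 74 were (2.70%, against 10.0% of all).

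Apart from these, 6 further regions of chromosome 4 had no counterpart in either replicate. They lay at 80006 to 81610, 572376 to 573459, 674497 to 675536, 957362 to 958477, 1014882 to 1015974 and 1300717 to 1302101, and had scores from 0.13 to 0.69. In all, 59 of 74 combined regions of chromosome 4 (79.7%, exact 95% interval 68.8 to 88.2%) overlapped both replicates, against 89.9% of all combined regions, and 9 (12.2%, 5.72 to 21.8%) overlapped neither, against 5.28% of all. The intervals cover counting error only. The 9 unsupported regions were narrow, with a median of 1116 bp, while the 59 had one of 4365 bp. Of the 55 regions that matched a single region in each replicate, 14 (25.5%) were wider in replicate 2, against 47.1% of all such regions.

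The Het sequences and U held 71 combined regions over 16.042 Mb, with wide stretches in which no region was called. On XHet all 5 regions stood within 30063 bp, 14.7% of that sequence, and covered 57.7% of that stretch. The strongest, at 59517 to 63731 (4215 bp), scored 2.64 in the combined list, 2.62 in replicate 1 (4072 bp) and 2.65 in replicate 2 (4161 bp). The widest, at 73571 to 80333 (6763 bp), scored 2.24, with 5547 bp and 2.35 in replicate 1 and 5843 bp and 2.41 in replicate 2. A region at 83862 to 86676 (2815 bp) scored 2.02, with 1.98 and 2.07 in the replicates. Beside them stood a region at 56614 to 58946 (2333 bp) with 0.97, 0.95 and 1.12, and a narrow one at 67421 to 68630 (1210 bp, score 0.50) found in neither replicate. XHet thus held a single compact block of called regions, and 4 of the 5 were present in both replicates.

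The 5 regions of YHet were also grouped together, within 36135 bp or 10.4% of the sequence, and they were alike in width. From the first to the last they lay at 304473 to 306677, 312599 to 314728, 319879 to 321993, 327099 to 329331 and 338969 to 340607. The first 4 were 2205, 2130, 2115 and 2233 bp wide, and their starts followed each other by 8126, 7280 and 7220 bp. The last was narrower, 1639 bp, and began 11870 bp after the start of the region before it. In replicate 1 the first 4 were 2259, 2043, 2112 and 2206 bp wide and scored 1.99, 1.20, 1.53 and 1.85. In replicate 2 they were 2107, 1875, 1926 and 2162 bp wide and scored 1.08, 0.95, 0.82 and 1.36. The first and the fourth were thus the strongest of these 4 in each list, and all 4 were narrower in replicate 2. The fifth was found in replicate 2 alone (1324 bp, score 0.87). The near-equal widths and spacings were noticed after the values were seen, and no sequence of these places was read.

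The autosomal Het sequences carried few regions. The median width and score were 2982 bp and 1.96 on 3LHet, 3016 bp and 1.88 on 3RHet and 4310 bp and 2.24 on the 3 regions of 2LHet, against 3171 bp and 1.78 over the whole list. On 2LHet, 2 regions were found in both replicates. These were at 29696 to 37006, 7311 bp wide with a score of 2.35 (7082 bp and 2.41 in replicate 1, 7159 bp and 2.31 in replicate 2), and at 165737 to 170046, 4310 bp wide with 2.24 (2.23 and 2.26). A further region there, at 253409 to 255903 (2495 bp, score 0.55), lay far from any region of the replicates (83373 bp away in replicate 1 and 83375 bp in replicate 2). On 3LHet, 14 of 15 regions overlapped both replicates and the other overlapped replicate 1 alone. They spread over 86.3% of the sequence, with a median gap of 112186 bp. The strongest was at 2242647 to 2246840, which scored 2.52 in the combined list and 2.51 and 2.53 in the replicates. Those at 2396866 to 2400647 (2.45, with 2.51 and 2.42) and 458662 to 461627 (2.24, with 2.31 and 2.17) came next. The widest region of 3LHet, 6050 bp at 205950 to 211999, was a weak one, with scores of 0.68, 0.79 and 0.75. Its width was 6104 bp in replicate 1 and only 3184 bp in the other replicate.

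On 3RHet all 9 regions lay beyond 1702461, within 27.0% of the sequence. The highest scores were 2.29 at 1805072 to 1809771 (2.37 in replicate 1 and 2.23 in replicate 2), 2.04 at 1934217 to 1937321 (2.13 and 2.01) and 1.96 at 1767323 to 1770310 (2.15 and 1.91). The widest, at 1820442 to 1825549 (5108 bp, score 1.93), had widths of 4879 bp and 4143 bp in the replicates. The long stretch of 3RHet before these 9 held none.

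Unplaced sequence had the lowest covered share of the sequences described here and also the highest-scored region of the list. The 34 combined regions of U covered 0.743% of it, with 0.656% in replicate 1 and 0.590% in replicate 2. Its strongest region, 2270 bp at 7530933 to 7533202, scored 3.34 and ranked 1 of 4979. It ranked 1 in replicate 1 with 3.70 (2222 bp) and 3 in replicate 2 with 2.98 (2177 bp). The region at 6383837 to 6387374 (3538 bp, score 2.96) ranked 4 in the combined list and 2 in each replicate, with 3.47 and 2.98. The region at 7541933 to 7544859 (2927 bp, score 2.80) stood 8730 bp beyond the strongest and ranked 6 in replicate 1 with 3.03 and 116 in replicate 2 with 2.73. The widest region of U, at 3441515 to 3445868, spanned 4354 bp and scored 2.33 (2.61 and 2.09). No region of U exceeded 5 kb. Of its regions, 5 of 34 (14.7%) were among the top 10% of the combined list by score, as were 6 of 30 (20.0%) in replicate 1 and 4 of 26 (15.4%) in replicate 2. The bottom 10% held as many in the combined list, 5 of 34 (14.7%), with 4 of 30 (13.3%) and 4 of 26 (15.4%) in the replicates. Each class holds about 10.0% of its list, so the excess on U rested on few regions, and it was not tested. The scores of U thus fell in both classes. Their median was 1.34, against 1.78 over the whole combined list. It was 1.55 against 1.93 in replicate 1, but 1.81 against 1.89 in replicate 2, where the difference was small.

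Widths on U lay within a narrow range. Of the 34 regions, 18 (52.9%) were 2000 to 2500 bp wide, against 13.1% of all combined regions. The same held for 16 of 30 in replicate 1 (53.3%, against 14.8% of all) and 16 of 26 in replicate 2 (61.5%, against 15.0%). The interquartile range was 1821 to 2390.75 bp in the combined list, against 2456.5 to 4626 bp over the whole list. The lengths of the scaffolds joined in U limit how wide a region there can be, and their part in the widths was not tested. The width class was chosen after the values were seen. On U 26 of 34 regions were found in both replicates (76.5%, exact 95% interval 58.8 to 89.3%, against 89.9% of all), 4 in replicate 1 alone and 4 in neither. Besides the 2 given above, those in neither were at 1397540 to 1398549 (1010 bp, score 0.53) and 6666814 to 6667814 (1001 bp, score 1.37). Most of the regions lay in the later part of U, where 27 of 34 started beyond 5 Mb.

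**Figure D3:**
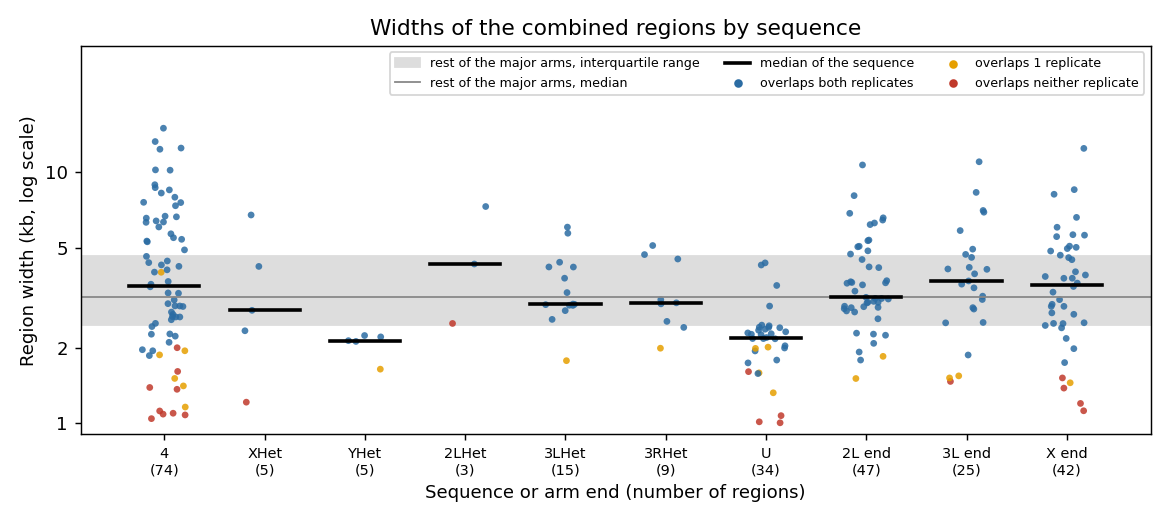
Widths in kb (log scale) of the combined regions on each sequence or arm end, 1 point per region, coloured by replicate support. Black bars are medians, and the grey line and band give the median and interquartile range of the rest of the major arms. Regions of YHet and U gather near 2.1 to 2.2 kb, below the grey band, whereas chromosome 4 reaches from 1 to 15 kb.

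In all, 58 of the 71 regions on the Het sequences and U were found in both replicates (81.7%, exact 95% interval 70.7 to 89.9%, against 89.9% of all). Of the rest, 6 were in replicate 1 alone, 1 in replicate 2 alone and 6 in neither (8.45%, against 5.28% of all). None of the 58 was split in a replicate, against 3.66% of all. Of these 58, 20 (34.5%, against 47.1% of all) were wider in replicate 2, among them 3 of 4 on XHet, 2 of 2 on 2LHet, 2 of 14 on 3LHet, 3 of 8 on 3RHet, 10 of 26 on U and 0 of 4 on YHet.

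The proximal ends, about 2 Mb each, showed fewer regions per Mb than the arms they belong to. The median widths of the regions were near those of the same arm on 2L and X and larger on 3L. The end of 2L was covered to 8.69% ± 0.0574 (SD, n = 2), that of 3L to 4.71% ± 0.0555 and that of X to 7.21% ± 0.447. Relative to the rest of its own arm, the covered share was 0.639 ± 0.0101 times as high on 2L, 0.332 ± 0.00205 times on 3L and 0.457 ± 0.0098 times on X. The ratios of regions per Mb were 0.632 ± 0.0236, 0.297 ± 0.00677 and 0.500 ± 0.0054. On each arm both measures were thus lower at the end by a like factor. Median widths were 3172 bp at the end of 2L, 3688 bp at that of 3L and 3560.5 bp at that of X, and 3014, 3127 and 3465.5 bp on the rest of those arms. For 3L they were 3623 bp at the end against 3095.5 bp on the rest in replicate 1, and 3778.5 bp against 3061 bp in replicate 2. In all, 104 of 114 regions of the proximal ends (91.2%, exact 95% interval 84.5 to 95.7%) overlapped both replicates, against 89.9% of all, a share near the background.

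The course of the covered share towards the centromere differed between the arms. In windows of 500 kb counted from the last base of 2L, it was 4.86% in replicate 1 and 4.86% in replicate 2 nearest the end, then 8.38% and 8.62%, 6.83% and 6.62%, and 14.7% and 15.0% in the fourth window. The fourth window of 2L was covered slightly more than the rest of that arm (13.6% ± 0.125). On 3L the last 4 windows held 2.41% and 2.06%, 2.49% and 2.46%, 5.60% and 5.48%, and 8.92% and 9.09%, and the fifth was still low with 7.04% and 6.56%, against 14.2% ± 0.0794 on the rest of that arm. On X they held 4.71% and 4.94%, 8.08% and 8.81%, 11.8% and 13.0%, and 3.33% and 3.68%. The sparsest of the last 4 windows on X was therefore the one farthest from the centromere, not the nearest. The replicates differed by at most 1.26 percentage points in these 12 windows. Low windows also lay outside the ends. At 5.0 to 5.5 Mb from the last base, the covered share was 4.10% in replicate 1 and 4.25% in replicate 2 on 2L. At that distance it was 7.25% and 7.88% on X and 9.37% and 9.14% on 3L.

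**Figure D4:**
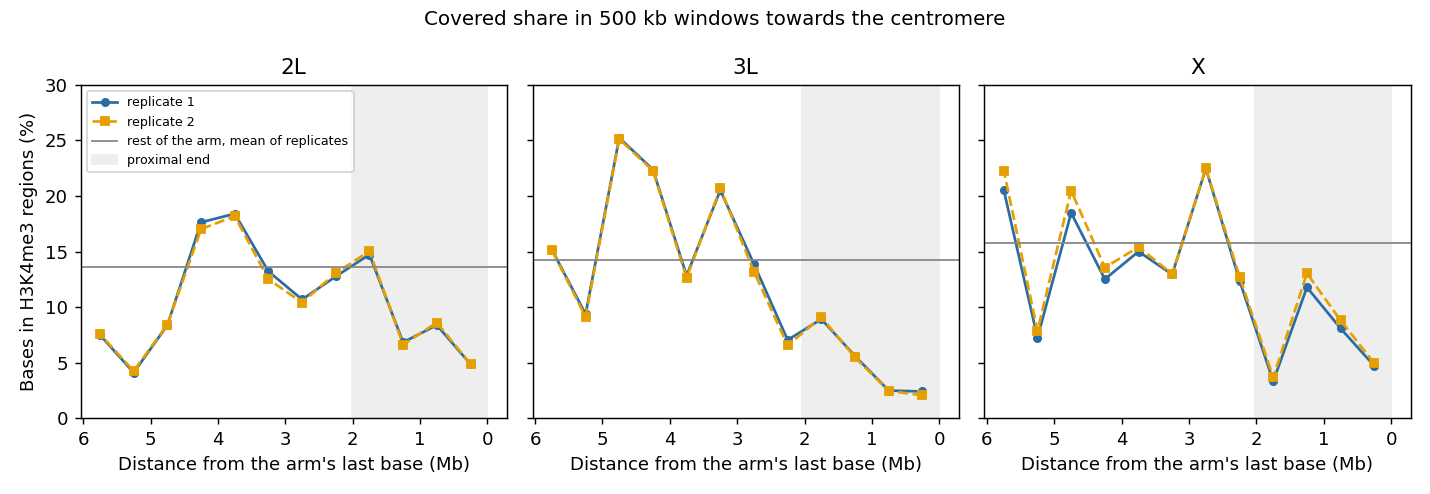
Percentage of bases in H3K4me3 regions of replicate 1 (circles) and replicate 2 (squares) in windows of 500 kb along 2L, 3L and X, by distance in Mb from the arm's last base, with the proximal end shaded. The grey line is the mean covered share of the rest of the arm. The share is lower in the last 3 windows of 2L than in the fourth (14.7% and 15.0%), and likewise on 3L (8.92% and 9.09%), while X dips at the start of the shaded part (3.33% and 3.68%) and rises again to 11.8% and 13.0%.

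At the limits that define the ends, regions changed as follows. On 2L the last region outside was at 20924817 to 20928637 (3821 bp, score 0.89) and the first inside at 21049504 to 21052861 (3358 bp, score 1.73). On 3L they were at 22452166 to 22454402 (2237 bp, score 0.40) and 22562980 to 22565497 (2518 bp, score 0.74). On X they were at 20392691 to 20396852 (4162 bp, score 2.32) and 20528005 to 20529516 (1512 bp, score 0.26, in neither replicate).

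At the end of 2L, 45 of 47 regions were found in both replicates and the other two in replicate 2 alone. The widest, at 21160685 to 21171397 (10713 bp, score 2.38), was a single domain in each replicate, of 10539 bp with 2.46 and 10486 bp with 2.35. It stood 581 bp beyond the third widest, at 21153236 to 21160103 (6868 bp, score 2.17), which was 6813 bp and 6866 bp wide in the replicates. These 2 belonged to a run of 5 regions within 40961 bp that covered 68.9% of it. The region at 21100888 to 21108967 (8080 bp, score 2.02) was 2 regions in each replicate, of 6091 and 1765 bp and of 5952 and 1616 bp. The highest scores were 2.45 at 22426692 to 22433146 (2.46 in replicate 1 and 2.48 in replicate 2) and 2.45 at 22248962 to 22251871 (2.52 and 2.38), both nearer the centromere than the 3 widest domains. The region nearest the end, at 22967580 to 22969841 (2262 bp), scored 0.88, with 1.07 and 0.77 in the replicates. The widest gaps of the combined list ran from 21760018 to 22019125 (259.1 kb) and from 22474598 to 22688996 (214.4 kb). The widest gap was 360991 bp in replicate 1 and 259123 bp in replicate 2.

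At the end of 3L the marked places were the most scattered, with 25 regions and a median gap of 31042.5 bp, against 8657 bp on the rest of the arm. None of its 24 gaps in the combined list was under 2 kb, whereas 21.5% of the gaps on the rest of 3L were. In replicate 1 none of 22 was, against 20.3%. In replicate 2 it was 1 of 23 (4.35%), against 20.6%. The widest region, at 22856112 to 22867143 (11032 bp, score 2.26), was a single region of 10949 bp in replicate 1 and 2 regions of 6112 and 4847 bp in replicate 2. Those at 23326616 to 23334940 (8325 bp, score 1.90) and 24020753 to 24027801 (7049 bp, score 1.81) followed. Scores were highest in the outer part, with 2.73 at 22732562 to 22736739 (2.69 in replicate 1 and 2.79 in replicate 2), 2.56 at 22869315 to 22874021 (2.68 and 2.51) and 2.54 at 22708540 to 22712477 (2.54 and 2.56). The region nearest the end, at 24529522 to 24536459, was a wide one of 6938 bp with a score of 1.66 (6787 bp with 1.76 and 6680 bp with 1.61). It stood alone beyond a gap of 303.8 kb, from 24225769 to 24529521. The widest gap of all the ends in the combined list ran from 23334941 to 23707207 (372.3 kb). Between these 2 gaps, at 24072639 to 24074102, was the 1 region of this end found in neither replicate (1464 bp, score 0.34). The widest gap of this end was 372401 bp in replicate 1 and 459486 bp in replicate 2.

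At the end of X the regions gathered in runs separated by long gaps. The 42 regions had a median gap of 3810 bp, against 7120 bp on the rest of X, and 15 of 41 gaps (36.6%) were under 2 kb, against 23.5%. These shares were 26.3% against 21.7% in replicate 1 and 36.8% against 22.5% in replicate 2. Yet 7 gaps of the combined list exceeded 100 kb, and 5 did in each replicate. The widest ran from 21502078 to 21844766 (342.7 kb) and from 20529517 to 20793186 (263.7 kb), and neither held a base of a region in the replicates. The largest run had 11 regions within 85688 bp, from 21175748 to 21261435, and covered 68.1% of it. Within it lay the widest region, at 21205718 to 21218193 (12476 bp, score 2.09), which was a single region of 12487 bp in replicate 2 and 2 regions of 8100 and 2724 bp in replicate 1. The third widest, at 21218695 to 21226877 (8183 bp, score 2.31), followed after 501 bp. A run of 7 regions at 21844767 to 21894529 held the region at 21868988 to 21877526 (8539 bp, score 1.89) and that at 21854678 to 21860320 (5643 bp), which scored 2.63 in the combined list, 2.71 in replicate 1 and 2.68 in replicate 2.

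The last run of X, 4 regions within 21831 bp, ended with the region nearest the end of the arm. This region, at 22413289 to 22417130 (3842 bp), also had the highest score of the X end, 2.70, with 2.62 in replicate 1 (rank 358 of 4705) and 2.81 in replicate 2 (rank 54 of 4713). A region at 21192147 to 21198188 (6042 bp) followed with 2.48 (2.62 and 2.51). So the region nearest the end was the strongest of the end on X, a mid-ranking one on 3L and a weak one on 2L. On X 4 regions were in neither replicate, at 20528005 to 20529516, 20994761 to 20995956, 21254218 to 21255335 and 22255856 to 22257232, with scores from 0.26 to 0.45. Of the regions matching a single region in each replicate, 24 of 33 at the end of X (72.7%) were wider in replicate 2, against 20 of 44 at that of 2L (45.5%), 8 of 21 at that of 3L (38.1%) and 47.1% of all.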

How the data were processed

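Regions enriched for H3K4me3 were deposited by the authors in 3 lists, 1 per ChIP replicate and 1 that combines them, in FlyBase release 5 coordinates per the file headers. The unit of each region's value is the authors' deposited score, and its scale, the region caller and the threshold were not stated in any source used here. The aligner was Bowtie, version 0.12.7, per the submitters' processing notes. The caller's threshold and the way of combining replicates can change the number and width of regions. Both depleted regions of the combined list were left out. The 2 input samples were not analysed here on their own.

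Overlap meant at least 1 bp. Covered shares use the header length of each sequence. Exact (Clopper-Pearson) 95% intervals cover counting error only. No test over regions was made, because regions are not replicates, and the inputs enter no comparison. The members, lists and rules were chosen with earlier results of these data known. Regions were named by fixed rules (the widest, the highest-scored, the lowest-scored on chromosome 4, the nearest to an arm's end, all of XHet and YHet, those in neither replicate, and the widest gaps). The X region outside the groups, the limits' neighbours and runs of at least 4 regions less than 10 kb apart were added after the values were seen. Alternatives were the top 50% of regions by score, joining neighbours closer than 500 bp, a reciprocal overlap of 50%, each replicate alone, leaving out U and moving the limits by 500 kb. The overlap and joining steps were checked on simulated data. Positions were not carried to the Release 6 gene table, so genes and sequences of regions are not reported. The work used Python 3.11.15, numpy 2.4.6, pandas 2.3.3, scipy 1.17.1 and matplotlib 3.10.9.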

Additional observations from a re-analysis of the deposited data

How the results depend on the processing

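No paired analysis was possible because the groups with shared replicate numbers are ChIP and input, and the inputs have no lists of their own here. The ratios of a group to the rest of the arms were formed within each replicate. With the top 50% of regions by score, chromosome 4 kept 27 regions, a covered share of 10.2%, a median width of 4000 bp (4000.0) and 88.9% found in both replicates. The Het sequences and U then had 35 regions, 0.724%, 2975 bp and 94.3%, and the proximal ends 64 regions, 5.05%, 4173.5 bp and 100% (100.0). Joining neighbours moved the median width to 4062 bp on chromosome 4 and 3611 bp at the proximal ends. Leaving out each replicate in turn gave covered shares of 21.6 to 22.1% on chromosome 4, 1.04 to 1.12% on the Het sequences and U and 6.76 to 6.97% at the proximal ends. It gave median widths of 3540 to 3890.5 bp on chromosome 4, 2374.5 to 2439 bp on the Het sequences and U and 3427 to 3433.5 bp at the proximal ends. The shares found in the replicate kept were 82.4 to 85.1%, 83.1 to 90.1% and 92.1 to 94.7%. Without U, the Het sequences had 37 regions, 2.10% covered and a median width of 2975 bp. With limits 500 kb nearer the centromere the covered share was 6.93%, and with limits 500 kb farther from it 8.28% with a median width of 3477 bp. Keeping only regions found in both replicates, chosen after seeing the data, gave 23.2% and 4365 bp on chromosome 4, 1.12% and 2566.5 bp on the Het sequences and U, and 7.18% and 3630.5 bp at the proximal ends. The cause of these shifts was not tested beyond what each setting leaves out. In every one of these settings in which chromosome 4 and the other groups were recomputed, chromosome 4 had the highest covered share of the groups and the Het sequences and U the lowest. The rest of the major arms was recomputed for each replicate alone but not in the other settings. Whether chromosome 4 stays above it there was not tested. By score, 27 of the 74 regions of chromosome 4 (36.5%) were in the top 50%, against 50.1% of those of the rest of the major arms. A reciprocal overlap of 50% left the shares found in both replicates within the spread between replicates. Unknown depth limits what can be said of narrow, weak regions.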
